A study of Mus musculus with 6 samples.

Results

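The 33 Hox genes described here are all the protein-coding genes named Hoxa, Hoxb, Hoxc or Hoxd with a number among the 23407 genes measured, and they were chosen by name alone. They comprise 9 genes of cluster A on chromosome 6, 9 of cluster B on chromosome 11, 9 of cluster C on chromosome 15 and 6 of cluster D on chromosome 2. GENCODE M21 annotates 39 protein-coding Hox genes in the mouse. The other 6 (Hoxa6, Hoxa13, Hoxb1, Hoxd1, Hoxd12 and Hoxd13) were not among these 23407 genes, so their levels are not known here. RNA was sequenced in bulk from primary dermal fibroblasts of the dorsal skin of 12-week-old mice, 3 libraries labelled WT and 3 labelled TSP2KO, which lack thrombospondin-2, a matrix protein encoded by Thbs2. The labels name no strain, sex or knockout allele. Both groups were cultured in serum for 3 to 5 days, a step that favours fibroblasts, and RNA was taken at passage 1. The culture can still hold other cells of the skin, and in bulk RNA fewer cells of a type and less RNA per cell cannot be told apart. Nothing states that each library is from its own animal, and p-values therefore measure only how far these libraries spread.

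Hox proteins are homeodomain transcription factors that give cells their position along the head-to-tail axis of the embryo. The genes lie in clusters, and their order on the chromosome follows the order in which they are expressed along the body: low-numbered genes act towards the head, middle numbers in the trunk and high numbers towards the tail and the tips of the limbs. Genes with the same number in different clusters form a paralog group. Adult skin fibroblasts are known to keep a site-specific set of active Hox genes in culture, which is one way to tell cells of the back from those of the face or the limb. Small RNAs of the miR-196 and miR-10 families are encoded inside these clusters, and miR-196 is known to direct cleavage of the Hoxb8 messenger RNA.

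Values are normalised reads per gene as deposited, and levels of different genes were compared only after division by the length of all annotated exons in kb. Estimated depth lay between 14776502 and 34599855 reads per library, and the Hox genes together held 1445 to 2879 reads per library. The limit that a count of 0 allows, 3 reads, equalled between 1.18 and 2.67 normalised reads and covers counting error only. Thbs2, the targeted gene, read 122061 in WT 1 and 116720 in WT 2 but 8841 in the library labelled WT 3, against 4891 to 6635 in the TSP2KO libraries. The targeted gene thus goes against the label of WT 3, and each adjusted p below is followed by its value without that library. All 10 fibroblast markers were detected, with a summed level of 222883 to 484749 normalised reads in WT and 187207 to 351754 in TSP2KO. The sums overlapped, but 3 of the 10 markers, Dcn, Lum and Pdgfra, were lower in every TSP2KO library than in every WT library. The share of all tested genes that did so was 8.27%. Dcn read 38395 to 55417 in WT and 2368 to 12200 in TSP2KO, Lum 3675 to 7501 and 86.4 to 1513, and Pdgfra 14328 to 21543 and 4442 to 8460.

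The fibroblasts expressed a set of Hox genes of the trunk. A mean of at least 10 normalised reads over the 6 libraries was taken as expressed, 1 to 10 as low and under 1 as near absent, which gave 15 expressed, 10 low and 8 near absent genes. Of the 12 genes of paralog groups 7 to 10, 11 were expressed, and these groups held 77.9% of the summed Hox level per kb. Groups 4 to 6 had 3 of 9 genes expressed and 17.6% of the sum. None of the 6 genes of groups 11 to 13 in the file, the most posterior, was expressed, and they held 1.12% of the sum. Hoxa13, Hoxd12 and Hoxd13 were not in the file.

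**Figure D1:**
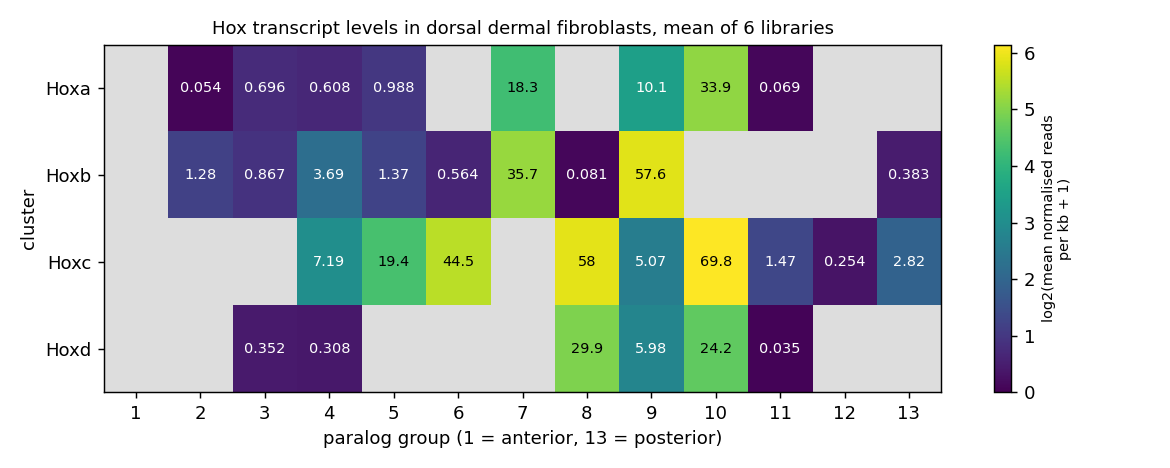
Mean level of each Hox gene over the 6 libraries, in normalised reads per kb of exon (printed in each square) and coloured by log2 of that level plus 1, with paralog groups along the x axis and clusters along the y axis. Grey squares have no gene shown here; the filled squares from group 7 to group 10 lie between 5.07 (Hoxc9) and 69.8 (Hoxc10), except for Hoxb8 at 0.081.

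Cluster C was the most expressed, with 6 of 9 genes (Hoxc4, Hoxc5, Hoxc6, Hoxc8, Hoxc9 and Hoxc10) and 46.2% ± 8.85 (SD, n = 6 libraries) of the summed level per kb. Cluster B had only Hoxb7 and Hoxb9 of 9 genes expressed, yet held 22.7% ± 2.47. Cluster A, where Hoxa7, Hoxa9 and Hoxa10 were expressed, held 17.2% ± 2.29. Cluster D had Hoxd8, Hoxd9 and Hoxd10 of 6 genes and 13.9% ± 6.68, the share that varied most for its size.

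Levels per kb formed a graded order with few clear steps. Hoxc10, a group 10 gene of the lower trunk and hindlimb, had the highest mean, 69.8 ± 23.4 normalised reads per kb (SD, n = 6). Hoxc8, a thoracic gene, followed with 58.0 ± 21.2, and Hoxb9, which acts in rib and sternum patterning, with 57.6 ± 18.97. Hoxc6 (44.5), Hoxb7 (35.7), Hoxa10 (33.9), Hoxd8 (29.9) and Hoxd10 (24.2) came next in mean level per kb. Hoxc5 (19.4), Hoxa7 (18.3), Hoxa9 (10.1), Hoxc4 (7.19), Hoxd9 (5.98) and Hoxc9 (5.07) closed the order. In 1 of the 13 adjacent pairs of this order, Hoxa7 and Hoxa9, the means differed by more than the larger SD of the pair. The gene with the highest level per kb was Hoxb7 in WT 1 (67.0), Hoxc10 in WT 2 (71.1), Hoxd10 in the library labelled WT 3 (51.9) and Hoxc10 in TSP2KO 1, 2 and 3 (90.6, 78.0 and 95.6). With the longest transcript or the coding length in place of all exons, Hoxc8 ranked first. As levels per kb among 15688 protein-coding genes, the expressed Hox genes stood at the 25.2 to 63.6 percentile with a median of 44.7. Their RNA levels were thus moderate among these genes.

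The end of the expressed set was sharp on the posterior side of each cluster. Hoxa11 lay at 0.069 normalised reads per kb beside 33.9 for Hoxa10, Hoxc11 at 1.47 beside 69.8 for Hoxc10, Hoxd11 at 0.035 beside 24.2 for Hoxd10, and Hoxb13 at 0.383 beside 57.6 for Hoxb9, its nearest neighbour in that cluster. In each of these pairs the posterior gene was lower in 6 of 6 libraries. Inside the expressed blocks, some genes were low between high neighbours. Hoxc9 lay under both Hoxc8 and Hoxc10 in level per kb in 6 of 6 libraries, Hoxd9 under both Hoxd8 and Hoxd10 in 6 of 6, and Hoxb8 under both Hoxb7 and Hoxb9 in 6 of 6.

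Hoxb8, on chromosome 11 between Hoxb7 and Hoxb9, was the only gene of groups 7 to 10 that was not expressed. It was listed at 0 in 5 libraries and at 1.28 normalised reads in the library labelled WT 3. Since the microRNAs of the Hox clusters bear on this gene family, their mature sequences are shown with the seed, bases 2 to 8, in capitals (RefSeq, GRCm38.p6). They fall into 2 families by seed, miR-196 and miR-10, and the members of each family differ only outside it.
mmu-miR-196a-5p: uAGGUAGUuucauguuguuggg
mmu-miR-196b-5p: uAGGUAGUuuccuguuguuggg
mmu-miR-10a-5p: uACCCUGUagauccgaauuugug
mmu-miR-10b-5p: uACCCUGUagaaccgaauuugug

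The miR-196 genes lie near the group 9 gene of clusters A, B and C. Mir196a-1 is at chr11:96265164-96265265 (+ strand), 6192 bases from Hoxb9. Mir196a-2 is at chr15:102973350-102973434 (+ strand), between Hoxc10 and Hoxc9 and 1457 bases from Hoxc10, and Mir196b is at chr6:52230081-52230165 (- strand), within the annotated span of Hoxa9. Mir10a is at chr11:96317165-96317274 (+ strand), 993 bases from Hoxb4, and Mir10b at chr2:74726070-74726137 (+ strand), within the annotated spans of Hoxd3 and Hoxd4. The levels of these small RNAs were not analysed here.

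The 3′ UTRs of Hox genes (GENCODE M21 transcripts) were searched on the transcribed strand for ACTACCT, the complement of the miR-196 seed. It occurred in 8 of 33 Hox genes, against 6.13% of 20920 protein-coding genes, with a median UTR of 960 bases in the Hox genes and 967 in all. They include Hoxa7, Hoxa9, Hoxb7 and Hoxc8 among the 15 expressed genes, and Hoxa4, Hoxa5 and Hoxb6 among the 18 others. The complement of the miR-10 seed, ACAGGGT, occurred in 3 of 33, against 12.6% of all. Pairing along the whole microRNA was searched separately. The 3′ UTR of Hoxb8 holds a stretch of 22 bases that pairs with miR-196a at 21 positions by Watson-Crick pairs and at 1 by a G:U pair, and 1 of 20899 genes, Hoxb8, had as many Watson-Crick pairs. The next Hox gene, Hoxd8, reached 15. The Hoxb8 stretch and the seed matches of 3 expressed genes are given 5′ to 3′, with the bases that face the seed in capitals. A match is a description of the letters and not evidence of a site in use.
Hoxb8: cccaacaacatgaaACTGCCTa
Hoxa7: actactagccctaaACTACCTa
Hoxb7: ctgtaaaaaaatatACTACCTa
Hoxc8: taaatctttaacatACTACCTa

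Of the anterior genes of cluster A, Hoxa2 read no more than 0.575, Hoxa3 8.01, Hoxa4 2.57 and Hoxa5 4.49 normalised reads in any library. Of the group 2 to 6 genes of cluster B, Hoxb4 was just outside the threshold, with a mean of 9.46 and library values from 2.87 to 16.7. Hoxb2, Hoxb3, Hoxb5 and Hoxb6 reached at most 5.77, 7.05, 12.2 and 2.57 normalised reads. Hoxd3 and Hoxd4, which share most of their annotated exon bases with each other or with a read-through gene and so could trade reads, reached 4.49 and 4.02. Below the threshold the groups were also apart for Hoxa3, which read 2.57, 0.392 and 3.21 in WT and 4.60, 6.32 and 8.01 in TSP2KO, and for Hoxd3, with 1.55, 1.57 and 4.49 in WT and 0, 1.26 and 0 in TSP2KO. Values of a few reads separate these groups.

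The posterior genes of groups 11 to 13 were low or near absent. Hoxc11 read at most 7.27 normalised reads, and Hoxa11, Hoxb13, Hoxc12 and Hoxd11 at most 0.559, 2.30, 1.57 and 0.89. Hoxc13, which acts in hair and nail formation, read 0.515, 2.75 and 3.85 in WT 1, 2 and 3 and 6.89, 4.48 and 23.1 in TSP2KO 1, 2 and 3. Every TSP2KO value of Hoxc13 lay above every WT value, but its mean of 6.94 kept it out of the test, and the margin between the groups was under 1 normalised read. TSP2KO 3, where Hoxc13 was highest, had the lowest summed level of the 10 keratinocyte markers, 337 normalised reads against 460 to 26437 in the others. Which cells gave the Hoxc13 reads was not tested. Just inside the threshold of 10 stood Hoxc9 with a mean of 12.3 and Hoxd9 with 12.8.

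The groups were then compared to ask whether cells labelled TSP2KO held another Hox set than those labelled WT. By the mean of each group, 13 Hox genes reached 10 normalised reads in both groups. Hoxb4 (12.0 in WT, 6.90 in TSP2KO) and Hoxd9 (18.3 and 7.25) did so only in WT, and Hoxc9 (9.47 in WT, 15.2 in TSP2KO) and Hoxc13 (2.37 and 11.5) only in TSP2KO. No Hox gene passed the test of the difference. By limma with Benjamini-Hochberg adjustment over 14707 genes, 0 of 15 tested Hox genes passed an adjusted p of 0.05 in either direction, beside 0% of all genes higher and 0.0612% lower in TSP2KO. The smallest adjusted p of a Hox gene by limma was 0.364. Without the library labelled WT 3 it was 0.127 and again 0 of 15 passed, beside 2.43% of all genes higher and 2.75% lower. Thbs2, the targeted gene, also missed the threshold with all 6 libraries, at a log2 difference of -3.18 (adjusted p = 0.318 by limma, 0.00257 without WT 3). A gene that did not pass is therefore not shown to be unchanged. At an unadjusted limma p under 0.05 there was 1 Hox gene higher in TSP2KO, Hoxc10, beside 3.66% of all genes, and there were 2 lower, Hoxb7 and Hoxd9, beside 6.09%, in all 3 of 15 beside 9.75%. The WT and TSP2KO libraries did not overlap for 3 of 15 with TSP2KO above (Hoxb9, Hoxc9 and Hoxc10), beside 5.9% of all genes, and for 2 of 15 with TSP2KO below (Hoxb7 and Hoxd9), beside 8.27%, in all 5 of 15 beside 14.2%. The median log2 difference, TSP2KO minus WT, was 0.10 for the 15 Hox genes and -0.01 for all genes tested, with 8 Hox genes above 0 and 7 below. The 95% intervals of the single log2 differences, which are not adjusted for the number of genes, reached between 0.65 and 1.94 to either side. The intervals are not limits of detection, but differences smaller than the interval of a gene could be missed here. Larger ones could also miss the adjusted threshold, as Hoxb7 did at -1.33 and Hoxc10 at 0.81.

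**Figure D2:**
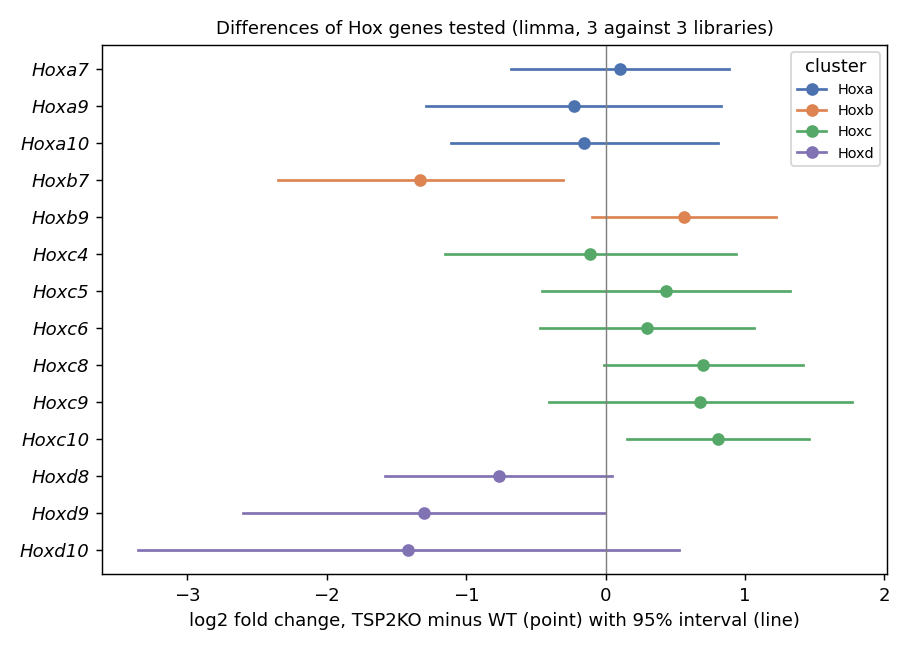
Log2 difference of the tested Hox genes shown, TSP2KO minus WT (points, x axis), with the 95% interval of each from limma (lines), ordered by cluster on the y axis and coloured by cluster. The points run from -1.41 for Hoxd10 to 0.81 for Hoxc10, and the intervals of Hoxb7, Hoxc10 and, narrowly, Hoxd9 leave out 0.

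The differences lay on opposite sides of 0 in clusters C and D. In cluster C, 5 of 6 tested genes had a log2 difference above 0, with a median of 0.56, and in cluster D, 0 of 3 did, with a median of -1.30. Cluster A was even, with 2 of 4 above 0 and a median of -0.02. Cluster B had 1 gene on each side. Without the library labelled WT 3 the medians were 0.55 in cluster C, -1.01 in cluster D and -0.14 in cluster A.

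Hoxc10 (ENSMUSG00000022484.7, chr15:102966796-102971893, + strand) read 76.7, 136 and 82.8 in WT 1, 2 and 3 and 173, 149 and 183 in TSP2KO 1, 2 and 3. The TSP2KO libraries all lay above the WT libraries, with WT 2 the nearest. Means were 98.4 ± 32.5 in WT and 168 ± 17.4 in TSP2KO (n = 3 each, ± SD), a log2 difference of 0.81 (SE 0.28, adjusted p = 0.397 by limma, 0.199 without WT 3). Its annotated exons share 8.70% of their bases with Hoxc5 on the same strand, so some reads of the pair may be uncertain.

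Hoxc8 (chr15:102990607-102994111), known for its role in thoracic vertebrae and motor neurons, read 164, 107 and 102 in WT and 142, 218 and 251 in TSP2KO. TSP2KO 1 lay within the WT range, so the groups overlapped. The log2 difference was 0.70 (SE 0.30, adjusted p = 0.515 by limma, 0.322 without WT 3), with means of 124 ± 34.2 and 204 ± 55.7 (± SD, n = 3 libraries).

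Hoxc9 (chr15:102976439-102985099), whose protein represses other Hox genes in thoracic motor neurons, read 13.9, 7.45 and 7.06 in WT and 17.2, 13.99 and 14.2 in TSP2KO. The groups were apart only by the small gap between WT 1 and TSP2KO 2. The log2 difference was 0.68 (SE 0.46, adjusted p = 0.711 by limma, 0.567 without WT 3).

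The anterior genes of cluster C overlapped between the groups. Hoxc6, a gene of the upper thorax and forelimb level, read 132, 93.0 and 66.7 in WT and 88.5, 144 and 119 in TSP2KO. Hoxc5 read 31.4, 47.9 and 78.3 in WT and 62.0, 58.7 and 81.0 in TSP2KO, and Hoxc4, the most anterior gene of the cluster, read 22.7, 12.2 and 23.1 in WT and 12.1, 21.3 and 19.6 in TSP2KO. Hoxc4 was nearly the same in both groups relative to its spread, and for Hoxc5 the library labelled WT 3 was within the TSP2KO range.

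In cluster D, Hoxd9 (ENSMUSG00000043342.9, chr2:74697727-74700208, + strand), a trunk and limb gene, read 21.1, 21.6 and 12.2 in WT 1, 2 and 3 and 11.5, 6.71 and 3.56 in TSP2KO 1, 2 and 3. All TSP2KO libraries lay below all WT libraries, but the library labelled WT 3 and TSP2KO 1 nearly met. The means were 18.3 ± 5.29 and 7.25 ± 3.99 (n = 3 each, ± SD), a log2 difference of -1.30 (SE 0.55, adjusted p = 0.511 by limma, 0.170 without WT 3).

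Hoxd8 (chr2:74704615-74707933) read 77.3, 111 and 119 in WT and 90.8, 48.1 and 46.3 in TSP2KO. TSP2KO 1 lay within the WT range while TSP2KO 2 and 3 lay below it. The log2 difference was -0.77 (SE 0.35, adjusted p = 0.534 by limma, 0.351 without WT 3).

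Hoxd10 (chr2:74691924-74695105), which patterns the lumbar spinal cord and hindlimb and was singled out here after its values were seen, read 64.4, 24.7 and 94.3 in WT and 25.9, 48.7 and 5.34 in TSP2KO. Relative to its mean it varied more within each group than Hoxd8 and Hoxd9, and the groups overlapped. The log2 difference was -1.41 (SE 0.83, adjusted p = 0.675 by limma, 0.534 without WT 3).

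In cluster B, Hoxb7 (ENSMUSG00000038721.8, chr11:96286623-96290162, + strand), a thoracic gene, read 104, 66.3 and 64.1 in WT 1, 2 and 3 and 38.5, 42.0 and 16.03 in TSP2KO 1, 2 and 3. All TSP2KO libraries lay below all WT libraries. The means were 78.0 ± 22.1 and 32.2 ± 14.1 (n = 3 each, ± SD), a log2 difference of -1.33 (SE 0.44, adjusted p = 0.364 by limma, 0.127 without WT 3). Its neighbour Hoxb9 (chr11:96271457-96276595) differed the other way: it read 93.7, 130 and 132 in WT and 144, 150 and 240 in TSP2KO. Every TSP2KO library of Hoxb9 lay above every WT library, TSP2KO 3 by the most. The log2 difference was 0.56 (SE 0.28, adjusted p = 0.601 by limma, 0.250 without WT 3).

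Cluster A gave no separation. Hoxa10 (chr6:52231197-52240854), which acts in lumbar vertebrae and the uterus, read 97.3, 199 and 68.6 in WT and 91.9, 85.0 and 124 in TSP2KO. WT 2 was the highest and the library labelled WT 3 the lowest of the 6. The log2 difference was -0.15 (SE 0.41, adjusted p = 0.942 by limma, 0.451 without WT 3), and it turned to 0.27 without WT 2. Hoxa9, known also from blood stem cells, read 72.6, 86.7 and 30.2 in WT and 52.3, 61.5 and 36.5 in TSP2KO. Hoxa7 read 59.7, 35.3 and 57.7 in WT and 51.1, 68.3 and 43.6 in TSP2KO. For Hoxa7, Hoxa9 and Hoxa10 the groups overlapped.

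**Figure D3:**
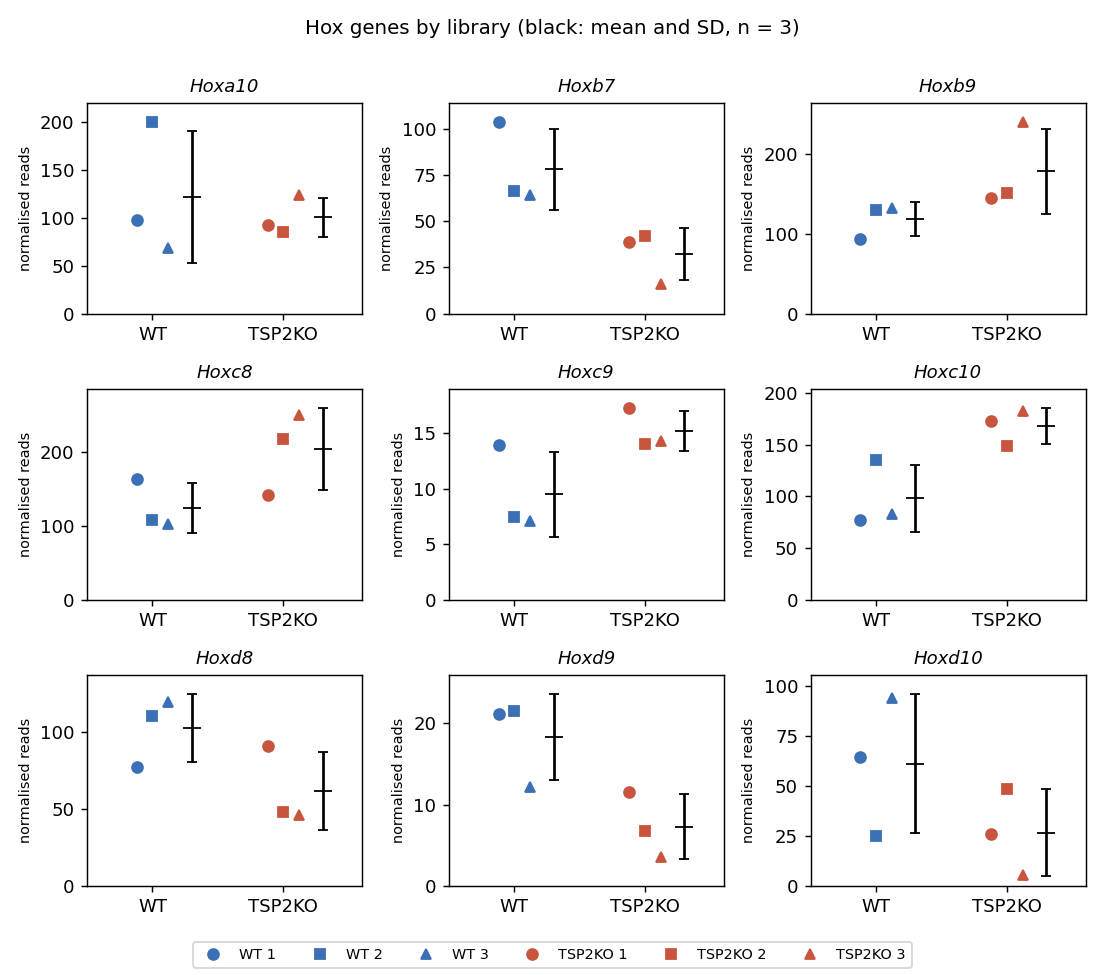
Normalised reads (y axis, from 0) of 9 Hox genes in each library, with WT in blue, TSP2KO in red, a symbol for each replicate number, and the mean and SD of 3 libraries in black. The groups are apart for Hoxb7, Hoxb9, Hoxc9, Hoxc10 and Hoxd9, and overlap for Hoxa10, Hoxc8, Hoxd8 and Hoxd10.

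Summed over each cluster, the level per kb of cluster C was 179, 176 and 146 in WT 1, 2 and 3 and 214, 253 and 283 in TSP2KO 1, 2 and 3. That of cluster D was 73.9, 64.7 and 102 in WT and 54.1, 47.8 and 21.7 in TSP2KO. The libraries of the groups did not overlap for either sum, and the library labelled WT 3 lay farther from the TSP2KO libraries than WT 1 and WT 2 did in both. As shares of all Hox levels per kb, cluster C held 41.4%, 40.1% and 34.5% in WT and 49.8%, 54.6% and 56.7% in TSP2KO, and cluster D held 17.1%, 14.8% and 24.2% in WT and 12.6%, 10.3% and 4.35% in TSP2KO. The share of cluster B was also apart, at 25.0%, 23.5% and 25.6% in WT and 20.03%, 19.7% and 22.5% in TSP2KO, though not by coding length, where it overlapped. The sums of clusters A and B overlapped, at 66.7 to 94.7 and 103 to 108 in WT and 71.5 to 82.3 and 86.2 to 112 in TSP2KO. Over all Hox genes the summed level per kb was 432, 438 and 423 in WT and 430, 464 and 499 in TSP2KO, so the groups overlapped in the whole and stood apart in its division. These sums were described after the values of their genes were known and carry no test.

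**Figure D4:**
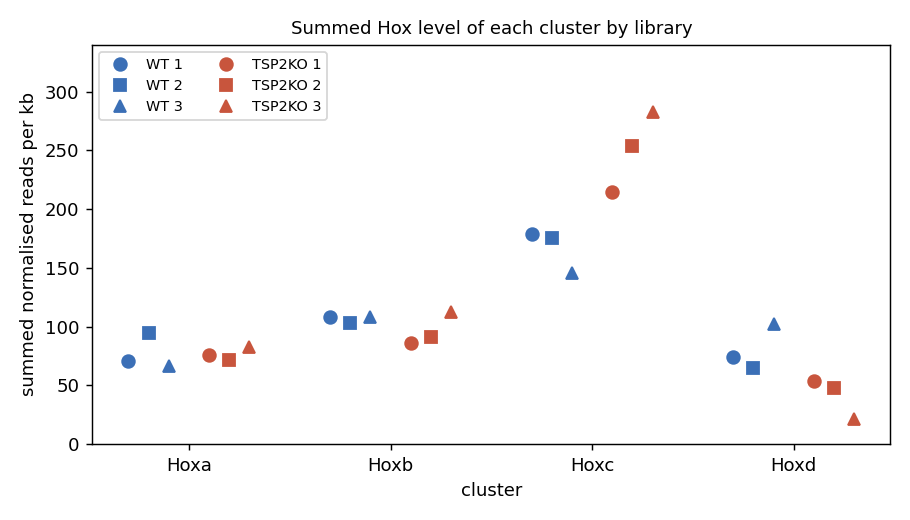
Summed level of each Hox cluster in normalised reads per kb (y axis, from 0) in each library, with WT in blue, TSP2KO in red and a symbol for each replicate number. In cluster C the TSP2KO libraries (214 to 283) lie above the WT libraries (146 to 179), and in cluster D they lie below (21.7 to 54.1 against 64.7 to 102).

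TSP2KO 3 was at the end of the range for many genes. It was the lowest of the 6 libraries for 4 expressed Hox genes (Hoxb7, Hoxd8, Hoxd9 and Hoxd10) and the highest for 5, among them Hoxb9, Hoxc5, Hoxc8 and Hoxc10. The library labelled WT 3 lay inside the TSP2KO range for 3 of 15 genes, as did WT 2 for 3 and WT 1 for 5. Without it, 4 of the 15 had an unadjusted limma p under 0.05, among them Hoxb7, Hoxc10 and Hoxd9, beside 24.5% of all genes.

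Markers of other cell types also moved with the groups or with single libraries. All 10 macrophage markers were detected and 10 of 10 were lower in TSP2KO in direction. By limma 1 of them passed the test, beside 0.0612% of all genes lower. Without the library labelled WT 3, 9 passed, beside 2.75% of all genes lower. The macrophage markers had a summed level of 2927 to 5702 normalised reads in WT and 674 to 801 in TSP2KO. The 5 pericyte and smooth muscle markers, all detected, summed to 1734 to 4264 in WT and 5330 to 9119 in TSP2KO, but only Cspg4 was apart between the groups (447 to 1997 against 3749 to 5362) and the other 4 overlapped. The 4 skeletal muscle markers in the file, of 6 listed, summed to 17.7 to 304 in WT and 365 to 651 in TSP2KO, and again 1 gene, Acta1, was apart (6.70 to 203 against 298 to 627), while Myog, Myh3 and Des overlapped. The 10 keratinocyte markers summed to 460 to 26437 in WT and 337 to 8917 in TSP2KO, and the 5 endothelial markers to 413 to 4410 and 498 to 1950, so these overlapped between the groups. The melanocyte and Schwann list, 6 of 6 detected, summed to 4380 to 9150 in WT and 1526 to 4868 in TSP2KO, and the 3 adipocyte markers in the file, of 4 listed, to 109 to 842 and 24.9 to 295. No marker in the file was at 0 in all libraries. The part of these cells in the Hox differences was not tested.

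Hox proteins bind DNA together with TALE homeodomain partners of the Pbx, Meis and Pknox families. All 9 listed partners were in the file and 8 were tested, of which 4 lay above and 4 below 0, with a median log2 difference of -0.01 and 0 past the limma test. Meis2, a Hox cofactor, read 73.1, 76.5 and 64.1 in WT and 89.6, 75.0 and 75.7 in TSP2KO, and the groups overlapped. Pknox2 read 577, 547 and 228 in WT and 149, 191 and 116 in TSP2KO, all TSP2KO libraries below all WT libraries. The log2 difference of Pknox2 was -1.48 (SE 0.39, adjusted p = 0.264 by limma), and without the library labelled WT 3 its adjusted p was 0.0172.

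Polycomb proteins keep Hox genes silent outside their domain and Trithorax proteins keep them active. All 26 listed genes were tested, 13 on each side of 0 with a median log2 difference of -0.02, and 0 passed the limma test. Rnf2, the ubiquitin ligase of Polycomb complex PRC1, read 1462, 1532 and 1018 in WT and 944, 801 and 945 in TSP2KO (log2 difference -0.56, SE 0.21, adjusted p = 0.438 by limma, 0.0546 without WT 3). It was the only gene of the 26 with an unadjusted limma p under 0.05, beside 9.75% of all genes. Cbx7, a reader of the Polycomb mark, read 62.8, 42.4 and 55.2 in WT and 60.9, 96.8 and 145 in TSP2KO, with overlap through TSP2KO 1.

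Retinoic acid and Cdx proteins switch on Hox genes in the embryo. Of 17 listed genes 14 were in the file and 11 tested, 4 above and 7 below 0 with a median log2 difference of -0.28, and 0 passed the limma test. At an unadjusted limma p under 0.05 there were 3 of 11 lower in TSP2KO, beside 6.09% of all genes. Cyp26b1, which degrades retinoic acid, read 482, 211 and 362 in WT and 175, 133 and 78.4 in TSP2KO (log2 difference -1.44, SE 0.40, adjusted p = 0.284 by limma, 0.121 without WT 3). Aldh1a1, which makes it, read 282, 361 and 141 in WT and 113, 102 and 120 in TSP2KO (-1.12, SE 0.35, adjusted p = 0.347 by limma, and 0.0196 without the library labelled WT 3). Crabp2, which carries it to its receptor, read 1517, 1178 and 926 in WT and 617, 732 and 237 in TSP2KO (-1.32, SE 0.43, adjusted p = 0.364 by limma, 0.108 without WT 3). For these 3 of the 11 tested genes no TSP2KO library reached the lowest WT library, beside 8.27% of all genes. The 3 were named by smallest p, so this separation adds no support of its own.

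Other transcription factors of position were read against the Hox set. Of the 12 listed for dorsal trunk dermis 10 were in the file and 7 tested. Tbx15, a factor of dorsal skin patterning, read 2945, 3475 and 835 in WT and 1052, 1221 and 1347 in TSP2KO. WT 1 and WT 2 stood above the rest and the library labelled WT 3 below all others, so the groups overlapped (log2 difference -0.77, SE 0.51, adjusted p = 0.703 by limma, and 0.0168 without that library). En1, known for its dorsal fibroblast lineage, was expressed at 9.19 to 23.5 normalised reads over the 6 libraries. Zic1 read 17.96 to 33.9, Tbx18 71.2 to 92.2, Meox2 292 to 773, Pax3 53.4 to 215 and Meox1 3.56 to 77.6. The remaining dorsal genes, Zic5, Pax1 and Sim2, were low or near absent and reached at most 1.92, 3.61 and 1.78. Of the 6 limb factors 5 were in the file and 2, Shox2 among them, had a mean of at least 10 and were tested. Shox2 read 55.9 to 88.1. Tbx4, a hindlimb gene, reached at most 10.2, Tbx5, a forelimb gene, at most 10.6 and Lmx1b, a marker of the dorsal limb, at most 2.57. The limb list was thus not absent as a whole. Of the 14 head factors 9 were in the file and 3 tested, and Six2 was listed at 0 in all libraries. Alx4, a factor of the skull and face that also acts in skin, read 117, 159 and 102 in WT and 255, 365 and 613 in TSP2KO, all TSP2KO libraries above all WT libraries (log2 difference 1.63, SE 0.35, adjusted p = 0.182 by limma, 0.0678 without WT 3).

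Noncoding genes in and beside the clusters were mostly low. Of 17 listed genes 14 were in the file, and only the long noncoding Gm53 and the pseudogene Gm11539, both in the region of cluster B, had a mean of at least 10. Gm53, upstream of Hoxb9, read 46.4, 67.1 and 36.6 in WT and 73.5, 86.7 and 89.9 in TSP2KO. As for Hoxb9, each TSP2KO library lay above each WT library (log2 difference 0.77, SE 0.30, adjusted p = 0.462 by limma, 0.280 without WT 3). Hotair, a long noncoding RNA of cluster C known from posterior and distal fibroblasts, read 1.03, 10.2 and 9.62 in WT and 1.72, 4.48 and 4.45 in TSP2KO. The library kit keeps the strand, but the strand setting used in counting is not given in the sources used here, so reads of an antisense gene and its Hox partner may not have been told apart.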

How the data were processed

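Poly(A) RNA of 6 libraries was sequenced with a stranded kit, per the labels. The authors deposited a normalised signal (reads per gene after scaling of each library). The submitters' processing notes name mm10, STAR, Partek and DESeq2, and Seurat 5.0.3 and Cell Ranger for single cells, without role or order. Between 67.8% and 72.7% of values above 0 were whole multiples of 1 read within 0.02, so whole reads were not recovered and no count test was run. Coordinates are those of GENCODE M21 (GRCm38, the build of mm10), counted from 1.

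Genes with a mean of at least 10 were compared as log2(value + 1) with limma 3.58.1 in R 4.3.3, two-sided, with a mean-variance trend and Benjamini-Hochberg adjustment over 14707 genes. Fold changes on this scale understate low genes. On simulated data the fit recovered 16.4% of 2-fold, 59.2% of 4-fold and 77.6% of 8-fold changes among 14707 genes. Fold changes are given for Hox genes with an unadjusted p under 0.05, for those whose groups do not overlap and for the highest gene of each cluster. Genes of the other lists were named partly by smallest p and partly for their level or role. Members and lists were chosen with earlier results of these data known. Alternatives were another pseudocount (0.1 or 10), filter (none or 100), scaling, trend setting, replicate block and each library left out. Values of some genes that enter the counts and sums are not reported here.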

Additional observations from a re-analysis of the deposited data

How the results depend on the processing

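No Hox gene passed the test under any alternative run, and the lowest adjusted p of a named Hox gene was 0.127, without WT replicate 3. Of 112 alternative log2 differences of the 9 named Hox genes, 1 changed sign: Hoxa10 ranged from -0.49 to 0.27 with each library left out, the latter without WT replicate 2. For all genes, the 9 lower calls became 0 with a pseudocount of 0.1, with no filter, with a mean of at least 100 and with libraries rescaled to the same total, 14 with a pseudocount of 10 and 15 without the trend. Leaving out each library gave 0 to 404 lower and 0 to 357 higher calls, the highest of both without WT replicate 3. The same omission set the top of the ranges for lower calls among Hox partners (0 to 1, Pknox2), retinoic acid and Cdx genes (0 to 2, Aldh1a1 and Dhrs3) and other positional factors (0 to 1, Tbx15), and moved Thbs2 to a log2 difference of -4.43. The cause was not tested. The share of cluster A was 19.6% by longest transcript and 19.6% by coding length, against 17.2%. With the replicate number as a block, 0 genes were lower. Same-numbered libraries deviated with correlations of -0.42, -0.25 and -0.39, and other pairs with -0.47 to 0.55. Deviations from the mean of 3 libraries sum to 0, so these values cannot settle whether the numbers pair the samples. The planned edgeR and DESeq2 fits on recovered reads were not run. Depth limits Hoxc9 and Hoxd9 most among the tested Hox genes.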
